A study of Mus musculus with 8 samples.

Results

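The 32 genes described here encode enzymes of cholesterol synthesis and proteins that sense, move, export or store sterols, and all 32 had a locus in an RNA-Seq table of 44396 loci from mouse embryonic stem cells (mESCs). A gene was taken as the locus whose most frequent gene name was its symbol. The list was chosen by pathway and was selected on an earlier reading of the same morphine against control contrast, so the RNA values of its members are a description and carry no p-value. The cells were an Oct4-GFP reporter mESC line, grown without feeders on gelatin, and all groups share that line. Control cells received saline (NaCl) and treated cells received 10 µM morphine for 24 h (chronic morphine treatment in the terms of the study). Each condition has 2 RNA-Seq libraries of polyA RNA and 2 ChIP-Seq peak lists of H3K27me3, the histone mark laid down by Polycomb repressive complex 2, which makes 8 libraries in all. Nothing states that equal replicate numbers share a culture, and standard errors measure only the spread between these samples.

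The RNA-Seq libraries held between 25081266 and 29531096 counts, and 20350 loci were abundant enough to test, all 32 members among them. The markers of pluripotent cells matched the labelled cell type, with 10 of 10 at 1 CPM or more (CPM, counts scaled to the TMM-normalised library size) and a summed level of 5287 to 5447 CPM over the 4 libraries. Summed markers of other cell types were lower, at 54.8 to 58.3 CPM for primitive endoderm (6 of 7 at 1 CPM or more), 34 to 37.4 CPM for trophoblast (4 of 7), 10.7 to 13.2 CPM for fibroblasts (3 of 7, with 1 gene at 0) and 151 to 165 CPM for neural and mesodermal cells (5 of 7), most of the last from Tubb3. No marker of any of these lists was called as changed by the test used below. In bulk RNA, fewer cells of a type and less RNA per cell cannot be told apart.

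Cholesterol is built from acetyl-CoA. The mevalonate steps make isoprenoid units, these are joined into farnesyl diphosphate and squalene, and squalene is closed into lanosterol and trimmed to cholesterol. The pathway is controlled by the SREBP transcription factors, which sit in the endoplasmic reticulum (ER) membrane with their escort Scap and are held there by Insig proteins while sterols are plentiful. When sterols fall, the factors are cleaved, enter the nucleus and raise transcription of the synthesis enzymes, whereas LXR nuclear receptors sense oxysterols and raise export. Embryonic stem cells divide fast and need sterols for new membranes, and the mevalonate branch also supplies lipid anchors for signalling proteins.

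After chronic morphine treatment, 13 of the 20 synthesis enzymes and 2 of the 5 genes of SREBP control were upregulated, as was 1 of the 7 genes of sterol transport, efflux and storage, counts whose differences were not tested. In all, by edgeR's quasi-likelihood test at a false discovery rate (FDR) of 0.05 over all loci, 16 of 32 members were upregulated and 0 were downregulated. Over all loci the same test called 125 as higher, which is 0.614% of those tested, and 184 as lower, which is 0.904%. Since the list was selected on this contrast, nothing is read from the difference between these shares. At an unadjusted p of 0.05, 20 members were higher and 2 were lower, beside 9.7% and 10.8% of all loci. DESeq2 and edgeR's exact test also called 0 members as lower, beside 368 and 468 of the 20350 loci. At such shares nothing is read from a count of 0. The rises were small. The 32 log2 fold changes ran from -0.45 to 0.61 with a median of 0.22, beside a median of 0.00129 over all tested loci, and 24 were above 0.

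Both morphine libraries lay above both controls for 21 members and below both for 4, and the libraries overlapped for 7. Over all tested loci, 26% had both morphine libraries above and 26.8% had both below. Summed over the members, the level was 3681 and 3706 CPM in the control libraries and 4341 and 4349 CPM after morphine. The number of calls moved with the libraries used, over the whole table as well as for the members. Leaving out a library leaves 1 in its condition, which is then assumed to vary like the pair of the other condition. Without morphine replicate 1, 0 members and 4 loci in all were called as higher, while the median of the members was 0.227. Without morphine replicate 2, 8 members (Mvk, Pmvk, Mvd, Fdps, Fdft1, Lss, Msmo1 and Dhcr7) of 63 loci were called. Without control replicate 1 there were 15 members of 164 loci, Nr1h2 being lost, and without control replicate 2 there were 17 of 639, with Hmgcs1 lost and Nsdhl and Srebf2 gained. The cause of these shifts was not tested.

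**Figure D1:**
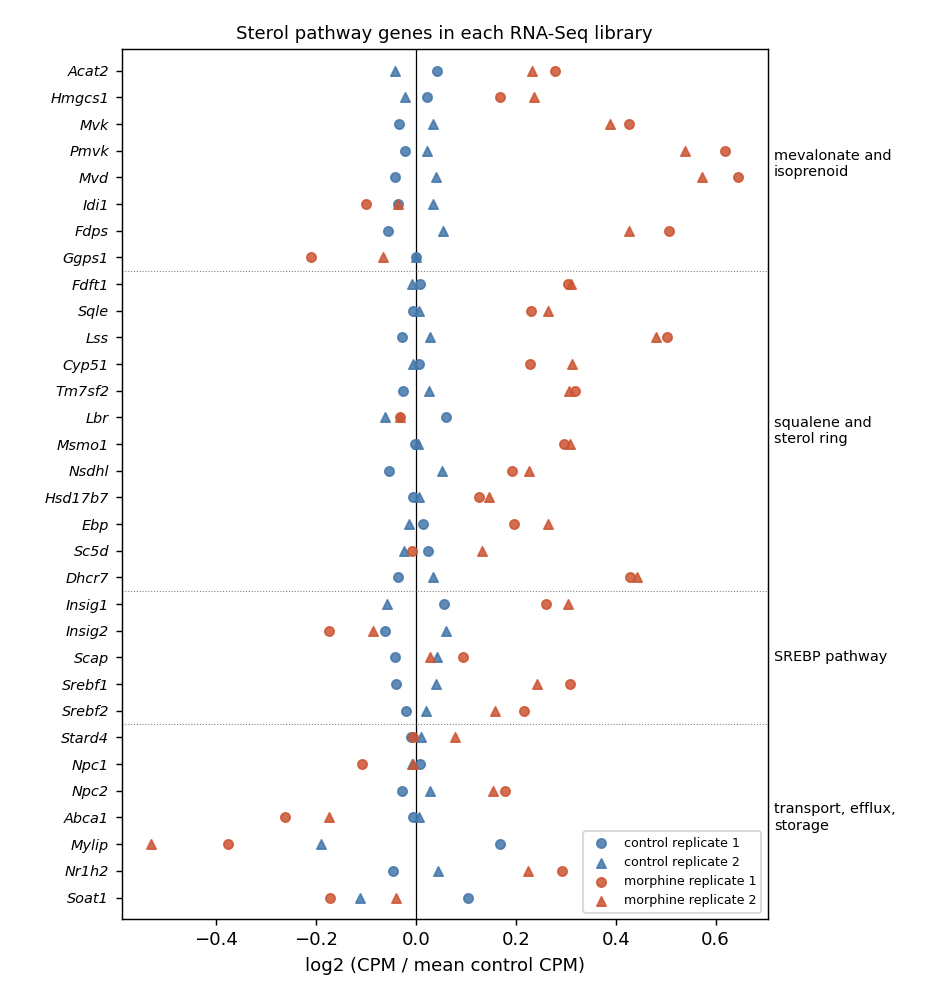
Each row is a member and each point a library, with the log2 ratio of its CPM to the mean of the control libraries on the x axis (blue, control; red, morphine; circles, replicate 1; triangles, replicate 2). Most mevalonate and sterol ring genes have both red points to the right of both blue points, Mvd and Pmvk farthest, and in the lowest block Abca1 and Mylip have both red points to the left.

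The mevalonate and isoprenoid enzymes had the largest median, with 6 of 8 upregulated and a median log2 fold change of 0.33. Their summed level was 866 CPM in each control library and 1073 and 1074 CPM after morphine. Acat2 (chr17:12943042-12960725), the cytosolic thiolase that joins acetyl-CoA units, had 106 and 100 CPM in the controls and 125 and 121 CPM after morphine, a log2 fold change of 0.26 (SE 0.05). With the trend of the counts with exon length removed, Acat2 stood at 0.22 and was not called. With the trend with GC content removed as well, it stood at 0.23 and was called. Its groups did not overlap. Its near-copy Acat3, with which reads could be exchanged, had 112 and 118 CPM in the controls and 116 CPM in both morphine libraries. The log2 fold change of Acat3 was 0.01 (SE 0.05). Hmgcs1 (chr13:119690351-119708260), the HMG-CoA synthase, had 441 and 428 CPM in the controls and 488 and 512 CPM after morphine, a log2 fold change of 0.20 (SE 0.04). This is the smallest rise among the called members, in the member with the highest level per length, at 92.8 CPM per kb of exon in the controls.

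Mevalonate is then phosphorylated and decarboxylated by 3 enzymes, each of which rose. Mvk (chr5:114444269-114460591), mevalonate kinase, had 42.8 and 44.9 CPM in the controls and 58.9 and 57.4 CPM after morphine, a log2 fold change of 0.41 (SE 0.06). Pmvk (chr3:89454541-89469009), phosphomevalonate kinase, had 46.5 and 47.9 CPM in the controls and 72.5 and 68.6 CPM after morphine, a log2 fold change of 0.58 (SE 0.06). Mvd (chr8:122433596-122443422), the decarboxylase that makes isopentenyl diphosphate, had 75.8 and 80.2 CPM in the controls and 122 and 116 CPM after morphine, a log2 fold change of 0.61 (SE 0.06). Mvd and Pmvk thus had the largest fold changes of the list, 52.9% and 49.3% above control. In all 3 the control libraries lay close together and well below both morphine libraries.

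Fdps (chr3:89093586-89101967), which joins the units into farnesyl diphosphate, had 113 and 122 CPM in the controls and 167 and 158 CPM after morphine, a log2 fold change of 0.47 (SE 0.06). The remaining mevalonate genes were not called. Idi1, the isomerase between Mvd and Fdps, had 16 and 16.8 CPM in the controls and 15.3 and 16 CPM after morphine, with overlapping groups and a log2 fold change of -0.06 (SE 0.08). Ggps1 (chr13:14050929-14063412), which leads to geranylgeranyl groups and so away from cholesterol, had 26.4 CPM in both controls and 22.8 and 25.2 CPM after morphine. Its morphine libraries lay below the controls but its log2 fold change of -0.14 (SE 0.07) was not called and ran from -0.21 to -0.07 with a library left out. Per kb of exon, Idi1 and Ggps1 were also low, at 5.71 and 5.54 CPM per kb in the controls against 77.6 CPM per kb for Fdps.

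Promoter windows were read for the 27 members that had an entry in the RefSeq promoter table, each from 250 bases before to 50 bases after a transcript start. They were searched on both strands for 4 runs of letters, namely TCACNCCAC (a form of the sterol regulatory element bound by SREBPs), CCAAT (the box bound by NF-Y, a known partner of SREBPs), CACGTG (an E-box) and GGGCGG (the GC box bound by Sp factors). No match says only that the letters are not in this window. TCACNCCAC was found in 1 member window, that of Hmgcs1, which is 3.7% of member windows against 1.24% of all 32851 windows. CCAAT was found in 22 member windows (81.5%, against 37.4% of all), GGGCGG in 22 (81.5%, against 35.7%) and CACGTG in 5 (18.5%, against 7.15%). All windows were taken whatever the RNA level of their gene, whereas every member passed the count filter. The sets are thus unlike, and the differences between their shares were not tested. Split by the RNA calls on which the list was selected, and so only as a description, CCAAT and GGGCGG were each in 10 of 13 windows of called members (76.9%) and in 12 of 14 windows of members not called (85.7%). CACGTG was in 1 of 13 (7.69%) and 4 of 14 (28.6%), and TCACNCCAC in 1 of 13 and 0 of 14. The windows of Hmgcs1 (GRCm38, chr13:119690101-119690400, plus strand), which holds the sterol element from 137 to 129 bases before the start, and of Mvd (GRCm38, chr8:122443373-122443672, minus strand), shown because its RNA rose most, read as follows, 5′ to 3′, with matches to any of the 4 in capitals.
Hmgcs1: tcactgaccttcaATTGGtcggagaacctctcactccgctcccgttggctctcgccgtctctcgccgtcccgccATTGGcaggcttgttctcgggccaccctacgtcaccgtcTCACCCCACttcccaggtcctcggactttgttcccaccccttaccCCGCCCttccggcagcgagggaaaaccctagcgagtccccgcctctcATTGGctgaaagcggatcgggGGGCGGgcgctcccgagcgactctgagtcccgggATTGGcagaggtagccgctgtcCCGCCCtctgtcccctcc
Mvd: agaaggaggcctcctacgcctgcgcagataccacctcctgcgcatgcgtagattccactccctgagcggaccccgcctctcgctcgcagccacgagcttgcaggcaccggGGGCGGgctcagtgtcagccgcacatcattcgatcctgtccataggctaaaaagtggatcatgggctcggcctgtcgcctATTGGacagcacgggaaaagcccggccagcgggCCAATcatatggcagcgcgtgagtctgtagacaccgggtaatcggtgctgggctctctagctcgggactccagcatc
The Hmgcs1 window holds 4 CCAAT boxes and 3 GC boxes besides the sterol element. The Mvd window holds 2 CCAAT boxes and 1 GC box. No relation between these matches and the fold changes was tested.

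Of the 12 enzymes that make and trim the sterol ring, 7 were upregulated and 0 downregulated, with a median log2 fold change of 0.26. Their summed level was 1591 and 1585 CPM in the controls and 1874 and 1907 CPM after morphine. Fdft1 (chr14:63145150-63179578), squalene synthase and the first enzyme committed to sterols, had 180 and 178 CPM in the controls and 221 and 222 CPM after morphine, a log2 fold change of 0.31 (SE 0.05). Sqle (chr15:59315092-59331193), the squalene epoxidase, had 218 and 220 CPM in the controls and 257 and 263 CPM after morphine, a log2 fold change of 0.25 (SE 0.04). For both enzymes the libraries of a condition were nearly equal and the conditions were apart. Exons of Fdft1 overlap Ctsb, a lysosomal protease gene with a log2 fold change of 0.03.

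Lss (chr10:76531605-76557139), lanosterol synthase, which closes the ring, had 128 and 133 CPM in the controls and 185 and 182 CPM after morphine, a log2 fold change of 0.50 (SE 0.05). It was the largest rise of the ring enzymes, with no overlap between groups. Exons of Lss overlap the locus 4930483K19Rik, which had 8.3 and 8.19 CPM in the controls and 13.8 and 14.1 CPM after morphine and was also called as higher, with a log2 fold change of 0.76 (SE 0.09). The strand setting of the counting is not stated, so reads of such pairs cannot be told apart. Cyp51 (chr5:4080674-4104697), the lanosterol demethylase, had 253 and 251 CPM in the controls and 295 and 313 CPM after morphine, a log2 fold change of 0.27 (SE 0.05).

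After Cyp51 a double bond is reduced by either of the sterol reductases Tm7sf2 and Lbr, of which the first was called and the second was not. Tm7sf2 (chr19:6062821-6077187) had 61.3 and 63.5 CPM in the controls and 77.8 and 77.2 CPM after morphine, a log2 fold change of 0.31 (SE 0.05) with no overlap. Its assembled locus also carries the neighbouring gene Vps51, so its counts cover both genes. Lbr, also the lamin B receptor of the inner nuclear membrane, had 262 and 241 CPM in the controls and 246 CPM in both morphine libraries, with overlapping groups and a log2 fold change of -0.03 (SE 0.05). Its exons overlap the locus AK133142, whose log2 fold change of -0.26 (SE 0.07) was not called. The difference between the reductases was not tested.

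The next steps remove methyl groups and move double bonds. Msmo1 (chr8:64718123-64733578), the methylsterol monooxygenase, had 229 and 230 CPM in the controls and 282 and 284 CPM after morphine, a log2 fold change of 0.30 (SE 0.04), with nearly equal values within each condition. Its partners Nsdhl, a sterol dehydrogenase, and Hsd17b7, a ketoreductase, had log2 fold changes of 0.21 (SE 0.06) and 0.13 (SE 0.06) and were not called, though both morphine libraries lay above both controls in each. Ebp, the sterol isomerase, had a log2 fold change of 0.23 (SE 0.06) and was likewise not called and not overlapping. Sc5d (chr9:42251595-42264300), a sterol desaturase, had 44.3 and 42.8 CPM in the controls and 43.3 and 47.7 CPM after morphine, with overlapping groups and a log2 fold change of 0.06 (SE 0.07). Dhcr7 (chr7:143823167-143848412), the reductase of a final step to cholesterol, had 76.1 and 79.9 CPM in the controls and 105 and 106 CPM after morphine, a log2 fold change of 0.43 (SE 0.05). Among these later steps the call thus fell on Msmo1 and Dhcr7 and not on the 4 enzymes between them. Exons of Dhcr7 overlap the locus AK215526, which had 9.46 and 8.73 CPM in the controls and 9.53 and 10.6 CPM after morphine.

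Among the 5 genes of SREBP control, 2 were upregulated and 0 downregulated. Srebf1 (chr11:60199084-60222756), which encodes the SREBP best known for fatty acid genes, had 157 and 166 CPM in the controls and 200 and 191 CPM after morphine, a log2 fold change of 0.27 (SE 0.05). Srebf2 (chr15:82147269-82205379), which encodes the SREBP best known for cholesterol genes, had 407 and 418 CPM in the controls and 479 and 460 CPM after morphine, a log2 fold change of 0.19 (SE 0.04). Neither gene's groups overlapped, but Srebf2 was called by DESeq2 and the exact test and not by the quasi-likelihood test in its main form. That test also called Srebf2 with total counts (0.21), without the count filter (0.18) and over named loci only (0.18). The same held with the replicate number as a block (0.19) and with the length trend alone removed (0.23). RLE scaling left it uncalled. With trends of the counts with exon length and GC content removed, Srebf1 stood at 0.15 and Srebf2 at 0.10, and neither was called. Exons of Srebf1 overlap Rai1, whose log2 fold change was 0.16 (SE 0.07) and was not called.

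Of the genes that hold SREBPs in the ER or escort them out, Insig1 was called and Insig2 and Scap were not, and the difference between them was not tested. Insig1 (chr5:28071412-28078662), which is itself a known SREBP target, had 81.4 and 75.3 CPM in the controls and 93.8 and 96.7 CPM after morphine, a log2 fold change of 0.28 (SE 0.06). Insig2 (chr1:121304353-121332589), not an SREBP target in the way Insig1 is, had 25.7 and 28 CPM in the controls and 23.8 and 25.3 CPM after morphine, a log2 fold change of -0.13 (SE 0.07) that was not called and ran from -0.19 to -0.07 with a library left out. Scap (chr9:110333288-110384949), the escort, had 100 and 106 CPM in the controls and 110 and 105 CPM after morphine, with overlapping groups and a log2 fold change of 0.06 (SE 0.05). So the libraries were separated upwards for Insig1, downwards by a small margin for Insig2, and not for Scap. Per kb of exon, Insig1 was above Insig2 in the controls, at 29.6 against 9.05 CPM per kb.

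The 7 genes of sterol transport, efflux and storage had a median log2 fold change of -0.05, with 1 upregulated and 0 downregulated. The exception was Nr1h2 (chr7:44549616-44553965), the widely expressed LXR receptor, with 76.9 and 81.8 CPM in the controls and 97.2 and 92.7 CPM after morphine, a log2 fold change of 0.26 (SE 0.06). With trends of the counts with exon length and GC content removed, Nr1h2 stood at 0.11 and was not called. Its exons overlap the locus AK184603, whose log2 fold change of 0.25 (SE 0.08) was not called. Abca1 (chr4:53030789-53159895), the LXR-driven pump that exports cholesterol from the cell, had 40.5 and 40.8 CPM in the controls and 33.9 and 36 CPM after morphine, a log2 fold change of -0.22 (SE 0.06). Mylip (chr13:45389742-45411940), another LXR target, whose product marks lipoprotein receptors for degradation, had 5.02 and 3.91 CPM in the controls and 3.44 and 3.09 CPM after morphine, a log2 fold change of -0.45 (SE 0.17). That of Mylip was -0.26 without control replicate 1 and -0.62 without control replicate 2, when it was called as lower. These were the 2 members that were lower at an unadjusted p of 0.05, a share of the 32 no higher than the 10.8% of all loci. With all libraries and the count filter neither was called, whereas without the filter Abca1 was called as lower (-0.22). Mylip rested on 138 and 115 counts in the controls and 87 counts in each morphine library, the fewest of the list.

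The transport genes Npc1, Npc2 and Stard4 and the storage gene Soat1 were not called. Npc2, the soluble lysosomal sterol carrier, had the highest log2 fold change of these, 0.16 (SE 0.05), without overlap, and was called by DESeq2. Npc1, its membrane partner, Stard4, a cytosolic sterol carrier, and Soat1, which esterifies cholesterol for storage, had log2 fold changes of -0.05, 0.04 and -0.10 with overlapping groups. Per kb of exon, the storage and efflux genes were at the low end of the list in the controls, with 4.07 CPM per kb for Soat1, 3.96 for Abca1 and 1.5 for Mylip.

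The fold changes of the whole table rose with the GC content of the exons. Over the tested loci with a GC value, Spearman's rho between the log2 fold change and GC content was 0.485, and over the 32 members it was 0.566. These are correlations across loci of the same 4 libraries, given as descriptions. The 16 called members had a median GC content of 52.2% and the other 16 one of 46.9%, beside 49.7% over all tested loci. When trends of the counts with exon length and GC content were removed in each library, 14 members were called as higher and 0 as lower. Over all loci only 59 were called as higher, which is 0.29% of 20335, and 33 as lower. Of the 14, 13 were among the 16 above. Srebf1, Nr1h2 and Tm7sf2, all GC-rich (57.8%, 58.6% and 55.7%), lost the call with log2 fold changes of 0.15, 0.11 and 0.23, and Nsdhl gained it with 0.26. What the GC trend contributes to the other calls was not tested.

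The correction moved genes in both directions. The median over the members stayed at 0.218, with 28 of 32 above 0, and the rho with GC content was 0.192 for the members and 0.00999 over all loci. The rises of the GC-rich genes Mvd, Pmvk and Mvk shrank to 0.44, 0.47 and 0.29, and those of the AT-rich genes Msmo1, Hmgcs1 and Cyp51 grew to 0.42, 0.33 and 0.36. Lss, near the median GC content, went from 0.50 to 0.54 and then had the largest value of the list. Srebf2, also GC-rich, went from 0.19 to 0.10, whereas Hsd17b7, Sc5d and Stard4 went up to 0.24, 0.18 and 0.13 and were still not called. Ggps1 went from -0.14 to -0.02. Idi1, Lbr, Npc1 and Soat1 changed sign to between 0.02 and 0.07, so their direction depends on this step. Mylip and Abca1 remained negative, at -0.46 and -0.14.

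**Figure D2:**
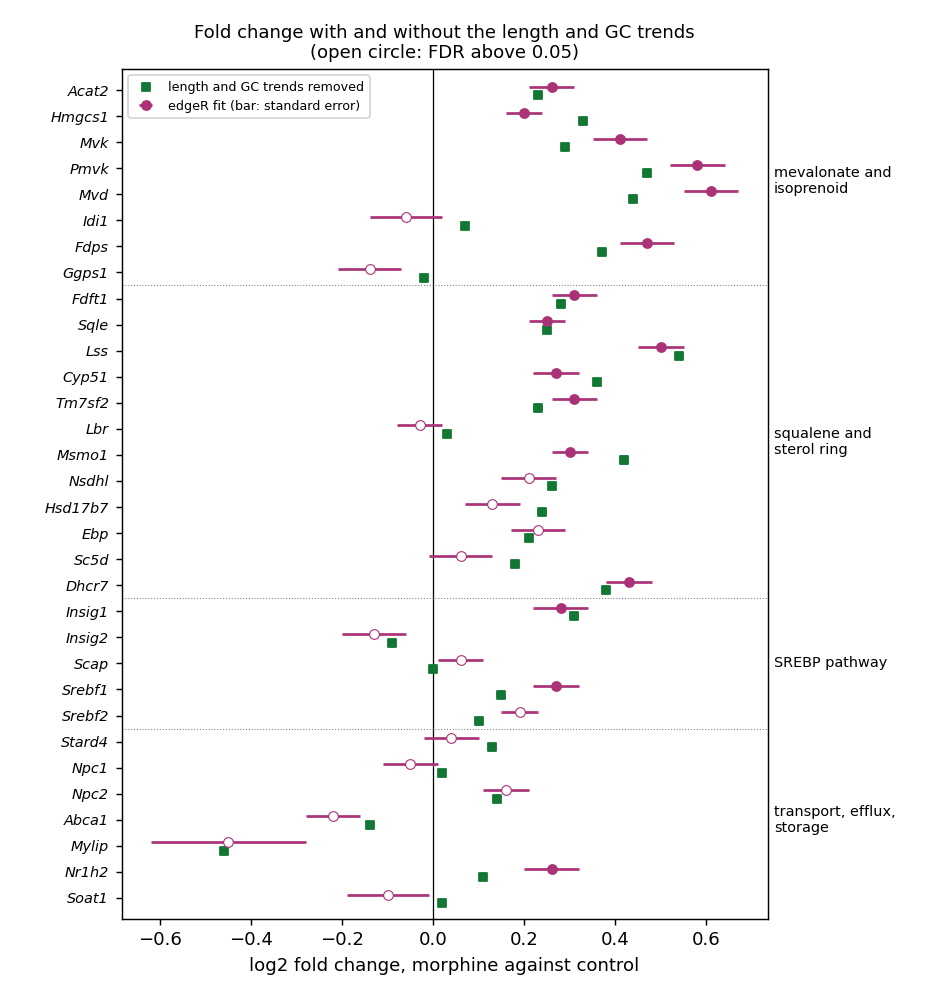
The x axis gives the log2 fold change of each member, morphine against control, from the edgeR fit (circles with a bar of 1 SE; filled where called) and after trends with exon length and GC content were removed (green squares). Mvd, Pmvk and Mvk move left and Msmo1, Hmgcs1 and Cyp51 move right, while all 16 filled members stay above 0 on both scales.

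**Figure D3:**
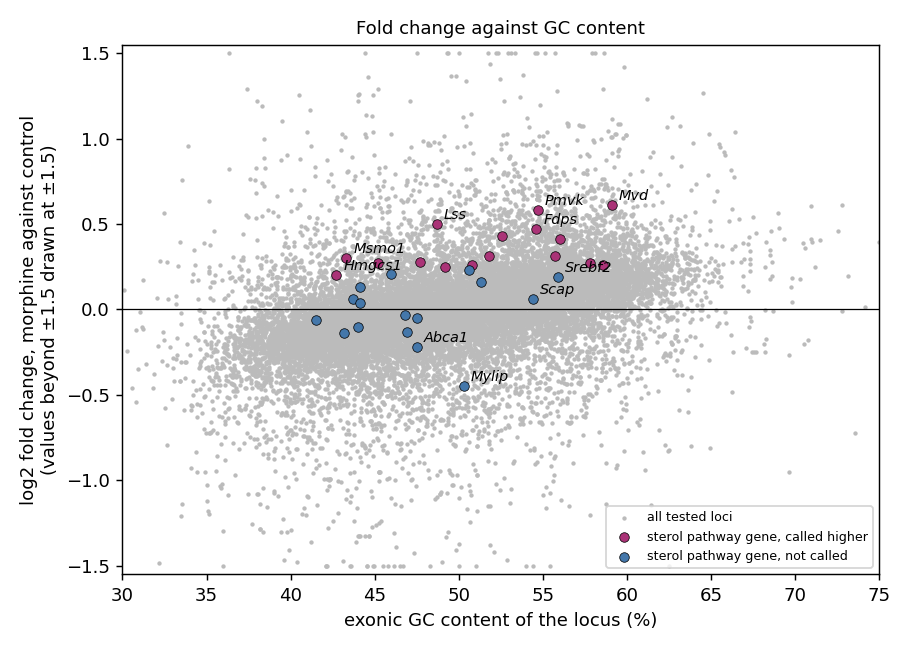
Each grey point is a tested locus, with exonic GC content in percent on the x axis and the log2 fold change on the y axis (values beyond 1.5 drawn at the edge); members are purple where called as higher and blue otherwise. The grey cloud tilts upwards with GC content, and called members lie at its upper side from Hmgcs1 at 42.7% to Mvd at 59.1%.

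The number of loci called in all also depended on the test used. DESeq2 called 18 members as higher beside 1.17% of all loci, with no adjusted p for Idi1, Mylip and Soat1, and edgeR's exact test called 17 beside 1.58%. All 16 members called by the quasi-likelihood test were among those called by each of the other tools.

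Beside the list, 53 other genes of sterol and isoprenoid metabolism were read (SREBP cleavage and ER turnover, the isoprenoid branch, and other sterol transport and metabolism). Of these, 49 were tested at 54 loci, since 3 genes had several loci, some with identical counts. Ch25h and Cyp46a1 did not pass the count filter, and Erlin2 and Faxdc2 were not analysed here. At the 54 loci 1 call was higher and 0 were lower, beside 0.614% and 0.904% over all loci, and at an unadjusted p of 0.05 there were 7 and 8, beside 9.7% and 10.8%, so these counts are near the background. The median log2 fold change was 0.03. DESeq2 called 2 and the exact test 3. The called gene was Rnf145, a sterol-sensing ER ubiquitin ligase, which had 75.2 and 76.2 CPM in the controls and 90.1 and 97.4 CPM after morphine, a log2 fold change of 0.31 (SE 0.06). It lost the call when either morphine replicate was left out, at 0.36 without replicate 1 and 0.25 without replicate 2. Of the 11 loci of SREBP cleavage and ER turnover, 8 were below 0, beside 10117 of 20350 over all tested loci. The lowest was Mbtps2, a protease that cleaves SREBPs, at -0.22 (SE 0.08), but with length and GC trends removed it stood at -0.02 and Fbxw7, a ubiquitin ligase subunit that acts on nuclear SREBPs, was then lowest at -0.12. Of the 13 loci of the isoprenoid branch, 0 were called, and the same held for the 30 loci of other transport and metabolism genes.

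H3K27me3 peaks were found at few members. A peak was counted if it overlapped the 1 kb on either side of the 5′ end of the locus. In control replicates 1 and 2 there were 2 and 1 such members, beside 19.3% and 19.4% of 17583 named loci. These and the named loci below are the loci with a gene name that passed the RNA count filter. In morphine replicates 1 and 2 there were 2 and 3, beside 19.9% and 20.4%. The mean was 1.5 ± 0.707 (SD, n = 2) in the controls and 2.5 ± 0.707 (SD, n = 2) after morphine. By an exact permutation test over the libraries this difference of 1 had a two-sided p of 0.667, where 0.33 is the smallest possible, and the values of the conditions overlapped. Over all 4 libraries, 4 of 32 members had a peak in any library, against 26.5% of named loci. The named loci were not matched to the members in RNA level, and what this contributes to the lower share was not tested. The paper states a minimum number of reads per replicate but not the depth of each library. A missing peak therefore does not show that the mark is absent.

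The members with peaks included both that had the most negative RNA fold changes. At Mylip, a peak began 211 bases after the 5′ end in control replicate 1 (score 89.55) and spanned it in morphine replicates 1 and 2 (scores 113.2 and 137.5). The score, which is -10 multiplied by log10 of the p-value from the peak caller, ranks peaks within a library only. Control replicate 2 had no peak there. At Abca1, a peak ended 271 bases before the 5′ end in control replicate 2 (score 122.9) and 586 and 597 bases before it in morphine replicates 1 and 2 (scores 53.09 and 91.62), and control replicate 1 had none. Within their libraries, 74.2%, 6.66% and 56.9% of peaks scored no higher than these 3 peaks. Each gene thus carried the mark in both lists from treated cells and in 1 of the control lists, which held for 1.8% of named loci. By this rule 0 members had peaks in both morphine lists and neither control list, beside 1.2% of named loci. The patterns at both genes depend on the rule. When the midpoint of the peak had to lie within 1 kb, or when the peak had to cover 50% of the window, Mylip was counted in both morphine lists and neither control list, as were 1.56% and 2.22% of named loci, and Abca1 was counted in no list. With a score of at least 100, which does not mean the same in each library, Mylip was counted in both morphine lists only and Abca1 in control replicate 2 only. Under the midpoint and coverage rules no member was counted in a control list, against 1 and 2 members in morphine replicates 1 and 2 (Mylip, and Msmo1 in replicate 2), with an exact permutation p of 0.333 under either rule.

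The promoter window of Mylip (GRCm38, chr13:45389492-45389791, plus strand), shown because the Mylip peaks of both morphine libraries reach into it, reads 5′ to 3′ as follows, with matches to the letters above in capitals.
Mylip: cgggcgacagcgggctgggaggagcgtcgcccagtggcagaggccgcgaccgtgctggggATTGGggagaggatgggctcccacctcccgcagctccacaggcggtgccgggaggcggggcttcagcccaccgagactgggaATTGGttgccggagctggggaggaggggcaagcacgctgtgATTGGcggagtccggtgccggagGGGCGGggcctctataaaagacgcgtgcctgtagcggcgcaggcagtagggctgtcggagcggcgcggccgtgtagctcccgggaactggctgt
It holds 3 CCAAT boxes and 1 GC box, and no match to TCACNCCAC or CACGTG.

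The other peaks were in 1 library each. Msmo1 had a peak across its 5′ end in morphine replicate 2 with a score of 50.51, and 1.15% of the peaks of that library scored no higher. Sc5d had a peak that ended 247 bases before its 5′ end in control replicate 1, with a score of 58.93. Of the 16 upregulated members, only Msmo1 had a peak in any library, and its RNA was higher after morphine. None of the 5 genes of SREBP control had a peak within the window in any of the 4 lists.

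**Figure D4:**
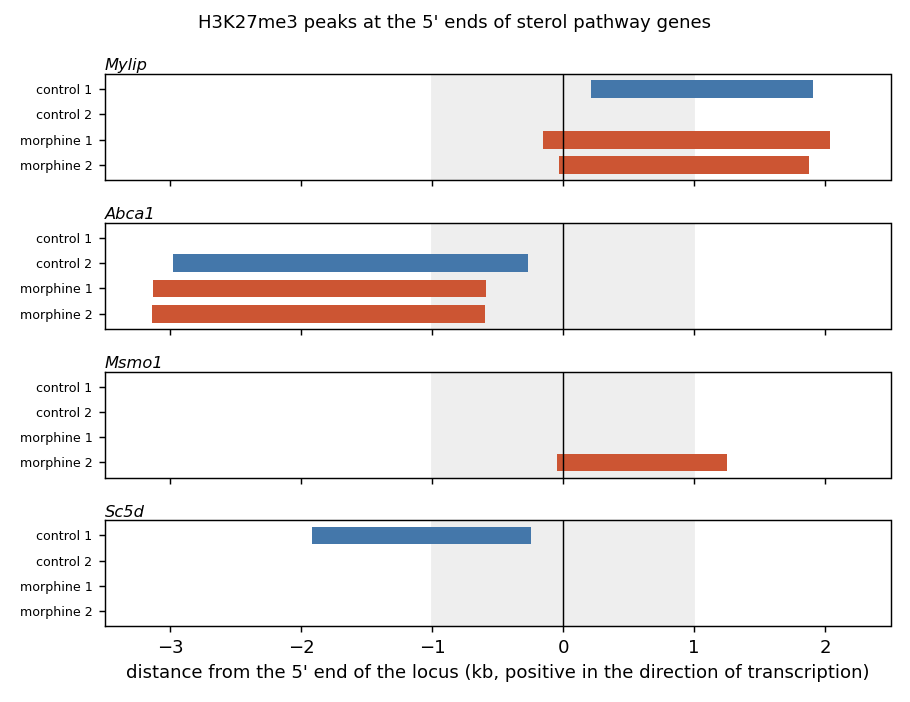
Bars show the H3K27me3 peaks near the 5′ end (vertical line) of the 4 members with a peak in the 1 kb window (grey), with distance in kb along the direction of transcription on the x axis and a row for each library (blue, control; red, morphine). Mylip and Abca1 have bars in both morphine rows and in 1 control row, and Msmo1 and Sc5d in a single row.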

How the data were processed

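Control and morphine libraries were grouped by their labels. RNA-Seq reads were aligned by the authors to mm10 with HISAT2 (version 2.1.0). They assembled transcripts with StringTie (version 1.3.6) and deposited raw counts per locus from featureCounts (version 1.6.4), with the exon lengths of each locus (a column of another unit). Strand setting and treatment of multi-mapped reads are not given in the sources used here. For ChIP-Seq, the authors called peaks per library with MACS at a p-value of 1e-05 and deposited a score of -10 times its log10. The sources do not name the control library given to MACS, and the labels and the paper name different antibody suppliers.

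Counts were filtered with filterByExpr, TMM-normalised and fitted in edgeR 4.0.16 under R 4.3.3 (quasi-likelihood F test), with Benjamini-Hochberg adjustment over all 20350 loci. Standard errors are the log2 fold change over the root of the F statistic. Loci without a name (2.04% of counts) were kept. On simulated counts, 200 of 200 loci changed by a log2 of 1 were recovered, with 25 false calls beside them among 20350 loci. The changed loci were drawn from those above the median level. The fold changes of the members were smaller than a log2 of 1, so this recovery does not apply to them. Length and GC trends were removed per library with natural splines of 5 degrees of freedom. Shares of motifs used RefSeq windows on GRCm38.p6, with the same coordinates as mm10, and 23 of the 27 windows lay at the assembled 5′ end. The windows of Tm7sf2, Lbr, Srebf1 and Ggps1 lay 9337, 2864, 175 and 76 bases from it. Of the members, 4 (Tm7sf2, Lbr, Msmo1 and Srebf1) had more unnamed than named entries at their locus. Exact permutation tests used Python 3.11.15 with scipy 1.17.1.

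The members, the lists of other genes and the markers were chosen with earlier results of these data known. Values in every library are given for called members, the 3 largest and the 3 smallest fold changes, the SREBP control genes and members with a peak. Hmgcs1 was printed by the rule of a called member with a sterol element, and the Mvd and Mylip windows were chosen after their values were seen, as were the values of Idi1 and Lbr by library. Alternatives were other tests (DESeq2 1.42.0, exact, likelihood ratio), scaling, filters, the replicate number as a block, the removed trends, other peak rules and leaving out each library.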

Additional observations from a re-analysis of the deposited data

How the results depend on the processing

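The number of members called as higher did not hold. With a library left out it ran from 0 to 17, and without morphine replicate 1 all 16 calls were lost, as were most of the whole table (4 loci higher against 125). The number of members called as lower was 1 without the count filter (Abca1) and 0 to 1 with a library left out (Mylip, without control replicate 2). The median of the members was 0.241 with total counts as the scaling and 0.207 to 0.227 with a library left out. The other sterol genes called, 1 in the report, were 2 by DESeq2, 3 by the exact test, 3 by the likelihood ratio test, 3 with total counts, 6 without the filter, 4 over named loci, and 0 to 5 with a library left out. The cause of these shifts was not tested. With length and GC trends removed, Soat1 (0.02), Lbr (0.03), Idi1 (0.07) and Npc1 (0.02) changed sign, as Npc1 (0.02) did with the length trend alone. With a library left out, Soat1 ran from -0.21 to 0.01 and Lbr from -0.09 to 0.03, each positive without control replicate 1, and Stard4 from -0.01 to 0.08 and Sc5d from -0.01 to 0.13, each negative without morphine replicate 2. The difference in members with a peak ran from 0.5 to 1.5 under all peak alternatives and was 1 with RefSeq transcript starts, an alternative chosen after seeing the data.

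The replicate numbers share only a number, with 2 pairs and a correlation of deviations of 0.0264. With the number as a block, 17 members and 2 other sterol genes were called as changed, all 16 members of the report among the 17, but 439 loci were higher and 689 lower over the whole table. At 87 to 138 counts a library, Mylip had the largest standard error of the members, 0.17.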
